A study of Mus musculus with 12 samples.

Results

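The Ebf transcription factors were described in RNA of the dorsal lateral geniculate nucleus (dLGN), the visual relay nucleus of the thalamus, of newborn mice that lacked *Sox2* or *Nr2f1* in thalamic neurons. The family has 4 members, *Ebf1*, *Ebf2*, *Ebf3* and *Ebf4*, and all 4 were among the 24480 genes named in the count tables. *Ebf1* was chosen by its measured levels, since it was lower in *Sox2* mutants and higher in *Nr2f1* mutants than in the controls of the same line, and the other 3 genes were taken as its family. The values of *Ebf1* in these comparisons are therefore given as a description, with no test.

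RNA was measured in 12 libraries, 3 in each of 4 groups, and each library was made from the dLGN of 3 animals pooled at postnatal day 0 (P0). *Sox2* mutants were Sox2flox/flox;Ror-alphaCre and their controls were Sox2flox/flox or Sox2flox/+ without Cre. *Nr2f1* mutants were Nr2f1 flox/flox;Ror-alphaCre. The label of their controls names the floxed and the Cre alleles but adds that Cre is absent. The paper gives these controls as Nr2f1flox/flox or Nr2f1flox/+ without Cre, and the controls of both lines as littermates of the mutants. Cre was under the control of *Rora* (Ror-alpha) and was used to delete the floxed genes in neurons of the thalamus. Mutants carry Cre and controls do not, so that an effect of the Cre allele itself cannot be told apart from that of the deletion. Total counts lay between 39293465 and 50095344 per library. Levels are given as CPM (counts scaled to the size of each library) after TMM normalization over the 12 libraries, and the libraries are called by the names of their columns in the count tables (CTRL_1 or MUT_A, for example).

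The Ebf proteins (early B cell factor, also called Olf or Collier factors) bind a palindromic DNA site as dimers, through a zinc-coordinating DNA-binding domain and a helix-loop-helix region. *Ebf1* is known for specifying the B cell lineage, for the differentiation of striatal neurons and for its expression in pericytes and fibroblasts, while several members act in olfactory neurons, in fat cells and in neurons that have just left the ventricular zone. The zinc finger proteins *Zfp423* and *Zfp521* bind Ebf proteins and modify their activity.

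The deleted genes were low in the libraries of their own mutants. *Sox2* was at 355, 358 and 381 CPM in *Sox2* controls and at 115, 150 and 151 CPM in *Sox2* mutants (log2 fold change -1.40 ± 0.10, SE, n = 3 and 3). *Nr2f1* was at 314, 373 and 383 CPM in *Nr2f1* controls and at 106, 152 and 102 CPM in *Nr2f1* mutants (log2 fold change -1.57 ± 0.14). In both lines the highest mutant library lay below the lowest control library, and transcripts of the floxed genes remained in every mutant library. *Sox2* was also lower in the other line, at 354, 346 and 377 CPM in *Nr2f1* controls and 239, 281 and 213 CPM in *Nr2f1* mutants (log2 fold change -0.55 ± 0.09, FDR = 0.0063 with edgeR, with 3 of 3 mutants below all controls). This call was lost without CTRL_B, CTRL_D, CTRL_E, MUT_A or MUT_C (highest FDR 0.0409) and kept without MUT_B. *Nr2f1* was at 303, 341 and 343 CPM in *Sox2* controls and 225, 312 and 219.7 CPM in *Sox2* mutants, where the groups overlapped and it did not pass (-0.39 ± 0.13, FDR = 0.0559). *Rora*, the gene that drives Cre, was at 358, 337 and 298 CPM in *Sox2* controls and at 80.1, 99.9 and 75.7 CPM in *Sox2* mutants, and at 385, 346 and 417 CPM in *Nr2f1* controls and at 366, 335 and 263 CPM in *Nr2f1* mutants. *Rora* thus separated the groups in the *Sox2* line, whereas the groups overlapped in the *Nr2f1* line.

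*Ebf1*, the factor needed for B cell specification, was read at 58.0, 62.7 and 59.0 CPM in *Sox2* controls and at 37.8, 35.8 and 38.0 CPM in *Sox2* mutants. In the *Nr2f1* line it was at 61.4, 62.2 and 57.6 CPM in controls and at 194, 167 and 161 CPM in mutants. All 3 *Sox2*-mutant libraries lay below all 6 control libraries, and all 3 *Nr2f1*-mutant libraries lay above them. The controls of the lines had nearly the same level, 59.9 ± 2.47 CPM (SD, n = 3) in the *Sox2* line and 60.4 ± 2.45 CPM in the *Nr2f1* line, and this difference is smaller than the spread between the pools. The order of the group means was *Sox2* mutants (37.2 ± 1.24 CPM), the controls of both lines, and *Nr2f1* mutants (174 ± 17.8 CPM).

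Within each line the log2 fold change of *Ebf1* was -0.70 ± 0.07 (SE) in *Sox2* mutants, a level 0.618 times that of controls, and 1.53 ± 0.07 in *Nr2f1* mutants, a level 2.88 times that of controls. With each library left out in turn, the values lay between -0.72 and -0.66 in *Sox2* mutants and between 1.44 and 1.58 in *Nr2f1* mutants. The counts behind these values lay between 1565 and 7676 per library. A lower log2 fold change than that of *Ebf1* was seen in *Sox2* mutants for 534 genes, of 15602 that could be tested, and a higher one in *Nr2f1* mutants for 54, of 15600. Genes are called differentially expressed (DEG) where the false discovery rate (FDR, by Benjamini and Hochberg) in edgeR's quasi-likelihood F-test was under 0.01. Among 15397 genes tested in both lines, and apart from *Ebf1*, which was picked for this pattern and is given no test, 18 genes were DEG in both and lower in *Sox2* but higher in *Nr2f1* mutants, *Prox1*, *Crtac1* and *Large* among them. DESeq2 gave 31 such genes apart from *Ebf1*, and 108 had an unadjusted p below 0.05 in both lines. The opposite pattern was met by 0 genes with edgeR, by 5 with DESeq2, and by 34 at an unadjusted p below 0.05 in both lines. DEG that moved the same way in both lines were 117 that were lower and 44 that were higher. With DESeq2 these counts were 350 and 216, and at an unadjusted p below 0.05 they were 968 and 1132, so that which direction held more genes depended on the threshold. RNA came from whole pieces of tissue, so that fewer cells that express a gene and less of its RNA in each cell cannot be told apart.

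**Figure D1:**
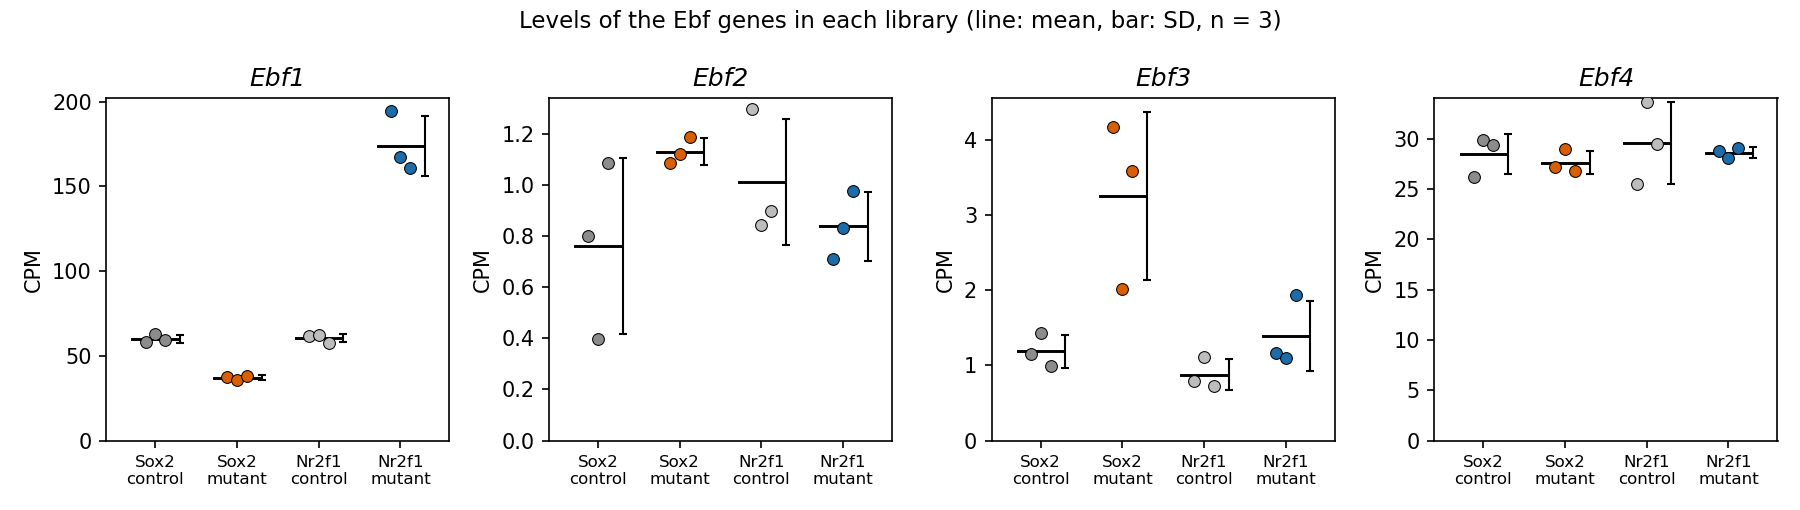
CPM of *Ebf1*, *Ebf2*, *Ebf3* and *Ebf4* in each of the 12 libraries (points), by group, with the mean (line) and SD (bar, n = 3); each panel has its own axis, starting at 0. *Ebf1* lay at 35.8 to 38.0 CPM in *Sox2* mutants, at 57.6 to 62.7 CPM in the controls of both lines and at 161 to 194 CPM in *Nr2f1* mutants, while the *Ebf4* groups overlapped in both lines.

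*Ebf3*, which is expressed by Cajal-Retzius neurons among other cells, was low in all libraries. It was at 1.16, 1.42 and 0.986 CPM in *Sox2* controls and at 4.17, 2.01 and 3.58 CPM in *Sox2* mutants. In the *Nr2f1* line it was at 0.792, 1.11 and 0.723 CPM in controls and at 1.16, 1.09 and 1.93 CPM in mutants. The *Sox2* groups did not overlap, with MUT_3 the lowest of the mutants, whereas in the *Nr2f1* line the lowest mutant library lay just under the highest control and MUT_C was the highest. *Ebf3* rose in *Sox2* mutants, with a log2 fold change of 1.44 ± 0.30 (SE, n = 3 and 3; FDR = 0.0091 with edgeR) and 3 of 3 mutant libraries above all controls, which is a fold change of 2.72 with a 95% interval of 1.72 to 4.299. This FDR is close to the threshold, and 5 of the 6 libraries were needed for it, since without CTRL_1, CTRL_2, CTRL_3, MUT_1 or MUT_4 it was 0.041, 0.025, 0.015, 0.028 and 0.042 in turn. In *Nr2f1* mutants the log2 fold change of *Ebf3* was 0.67 ± 0.31 and did not pass (FDR = 0.214), and the 95% interval of the fold change was 0.989 to 2.57. This log2 fold change was 0.36 without MUT_C and at most 0.88, without CTRL_D, as each library was left out. The difference between the lines, 0.78 ± 0.44 on the log2 scale, did not pass either (FDR = 0.436), so that *Ebf3* is not shown to respond differently in the lines.

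*Ebf2*, known for its part in the migration of Purkinje and neuroendocrine cells and in brown fat, had counts between 17 and 54 per library. Its levels were 0.80, 0.397 and 1.08 CPM in *Sox2* controls and 1.08, 1.12 and 1.19 CPM in *Sox2* mutants. In the *Nr2f1* line they were 1.30, 0.842 and 0.899 CPM in controls and 0.708, 0.830 and 0.976 CPM in mutants. The *Sox2*-mutant libraries lay above the controls by a margin smaller than the rounding of these values, with CTRL_3 next to MUT_1, and the *Nr2f1* groups overlapped. Neither log2 fold change passed the test, at 0.57 ± 0.35 in *Sox2* mutants (FDR = 0.278) and -0.26 ± 0.28 in *Nr2f1* mutants (FDR = 0.621). The 95% intervals of the fold change, 0.864 to 2.55 and 0.539 to 1.29, include 1. Single libraries moved these values. The log2 fold change in *Sox2* mutants was 0.26 without CTRL_2 and 0.91 without CTRL_3, and that in *Nr2f1* mutants lay between -0.39 (without MUT_C) and -0.05 (without CTRL_B), and no value passed. The difference between the lines was 0.84 ± 0.46 (FDR = 0.408).

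*Ebf4*, the member first described in the olfactory epithelium, was at 26.3, 29.9 and 29.4 CPM in *Sox2* controls and at 27.2, 29.0 and 26.8 CPM in *Sox2* mutants. It was at 25.5, 33.7 and 29.5 CPM in *Nr2f1* controls and at 28.8, 28.1 and 29.1 CPM in *Nr2f1* mutants. All 4 groups overlapped, and the widest spread was that of the *Nr2f1* controls. Its log2 fold change was -0.05 ± 0.08 in *Sox2* mutants (FDR = 0.691) and -0.05 ± 0.10 in *Nr2f1* mutants (FDR = 0.809). Counts of *Ebf4* were between 1063 and 1640 per library, and the 95% intervals of the fold change ran from 0.8498 to 1.095 and from 0.834 to 1.12. With each library left out, the log2 fold change lay between -0.11 (without CTRL_1) and -0.01 (without CTRL_2) in *Sox2* mutants and between -0.14 (without CTRL_B) and 0.06 (without CTRL_D) in *Nr2f1* mutants, and passed in none. The difference between the lines was 0.00 ± 0.13 (FDR = 0.998).

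Counted over the family, all 4 genes passed the filter on low counts in both lines. In *Sox2* mutants 1 of the 3 genes not chosen by their values, *Ebf3*, was a DEG, where 8.08% of all genes tested were DEG (3.9% upregulated and 4.19% downregulated). In *Nr2f1* mutants 0 of these 3 were DEG with edgeR or with DESeq2 and 0 had an unadjusted p below 0.05, where 2.54% of all genes tested were DEG (1.22% upregulated and 1.32% downregulated). The difference between the lines passed for 0 of these 3 genes, none of which had an unadjusted p below 0.05, and for 1.44% of all genes tested. Of these 3 genes, groups of libraries did not overlap for *Ebf2* and *Ebf3* in the *Sox2* line, where 37.9% of all genes tested did not overlap. In the *Nr2f1* line this held for 0 of these 3, where the share was 28.7%. With shares of this size, groups that do not overlap say little about a single gene. The same holds for an unadjusted p below 0.05, which was met by 35% of all genes tested in *Sox2* mutants, by 24.6% in *Nr2f1* mutants and by 16.2% for the difference between the lines. DESeq2 called 15.8%, 7.13% and 3.4% in turn, more than edgeR in each. All counts that follow for lists of genes, of DEG as well as at an unadjusted p or with DESeq2, are to be read against these shares.

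**Figure D2:**
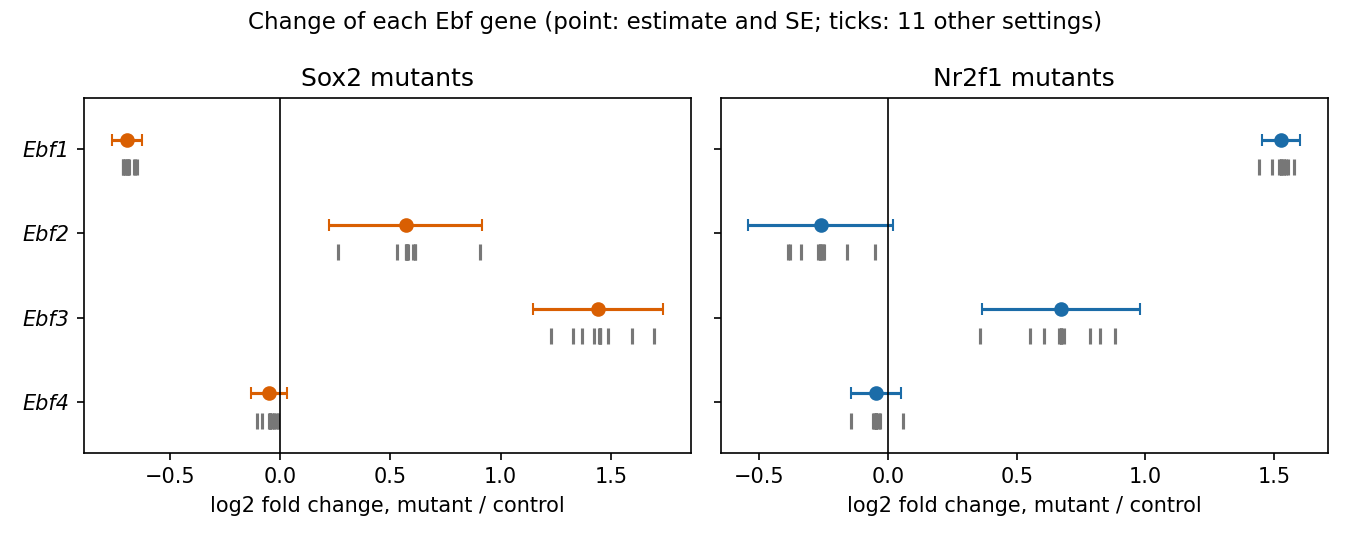
Log2 fold change of each Ebf gene in *Sox2* mutants (left) and *Nr2f1* mutants (right) against the controls of the line, with the SE as bars, and, as grey ticks under each point, the values under 11 other settings. *Ebf1*, which was chosen for these signs and is shown as a description only, lay below 0 in *Sox2* mutants and above 0 in *Nr2f1* mutants under all 11. *Ebf3* ran from 1.23 to 1.70 in *Sox2* mutants, and *Ebf4* in *Nr2f1* mutants lay on both sides of 0, from -0.14 to 0.06.

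Levels of different genes can be compared only per length of transcript. Per kb of the longest GENCODE transcript linked to a RefSeq entry, *Ebf1* (5981 bases) and *Ebf4* (2670 bases) had like levels in *Sox2* controls, 10.02 ± 0.414 and 10.7 ± 0.743 CPM per kb (SD, n = 3), and do not differ beyond their spread. *Ebf3* (4994 bases) followed at 0.238 ± 0.0443 and *Ebf2* (5204 bases) at 0.146 ± 0.0664 CPM per kb. In *Sox2* mutants *Ebf1*, at 6.22 ± 0.207 CPM per kb, lay below *Ebf4*, at 10.4 ± 0.44, and in *Nr2f1* mutants *Ebf1*, at 29.1 ± 2.97, lay above *Ebf4*, at 10.7 ± 0.191. This order depends on which transcript is made, since with the shortest of the linked transcripts (2864 bases) *Ebf1* had 20.9 CPM per kb in *Sox2* controls and 12.98 in *Sox2* mutants, above *Ebf4* in both, and the tables do not tell transcripts of a gene apart. *Ebf2* and *Ebf3* were the lowest under either length in all 4 groups.

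Pearson's r of log2 CPM between members was taken over the 12 libraries, each line centred on its own mean. It was 0.27 for *Ebf2* and *Ebf3*, -0.41 for *Ebf2* and *Ebf4* and -0.09 for *Ebf3* and *Ebf4*. The n = 12 libraries share the contrast of mutants and controls. Between *Ebf1* and *Ebf2*, *Ebf3* and *Ebf4*, r was -0.46, 0.01 and -0.05 in turn. These values with *Ebf1* are a description only, as it was picked for its contrast. The genes most like *Ebf1* by this measure were *Crtac1* (r = 0.985), *Chst1* (0.968), *Hrk* (0.954), *Kctd16* (0.952), *Ppp2r2b* (0.951), *Nfe2l3* (0.951), *Large* (0.945) and *Gyltl1b* (0.943). All 8 had a negative log2 fold change in *Sox2* mutants, between -0.87 (*Gyltl1b*) and -0.22 (*Ppp2r2b*), and a positive one in *Nr2f1* mutants, between 0.49 (*Ppp2r2b*) and 1.25 (*Kctd16*), as the measure picks genes with the contrast of *Ebf1*. *Ebf1* had a higher value than all 8 in *Nr2f1* mutants, and *Kctd16* and *Gyltl1b* had lower values than *Ebf1* in *Sox2* mutants.

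*Crtac1*, which encodes a secreted protein of the extracellular matrix and was not among the 8 most alike without centring, was at 77.7, 72.3 and 69.7 CPM in *Sox2* controls, at 56.2, 56.9 and 53.9 CPM in *Sox2* mutants, at 61.0, 61.7 and 55.1 CPM in *Nr2f1* controls and at 114, 114 and 102 CPM in *Nr2f1* mutants. *Large* and *Gyltl1b* encode a pair of related glycosyltransferases that add sugars to dystroglycan. *Large* was at 69.6 to 78.2 CPM in *Sox2* controls, 52.0 to 55.5 CPM in *Sox2* mutants, 75.5 to 85.8 CPM in *Nr2f1* controls and 118 to 130 CPM in *Nr2f1* mutants. *Gyltl1b* was at a low level, with 2.49 to 3.02 CPM in *Sox2* controls, 1.30 to 1.87 CPM in *Sox2* mutants, 1.82 to 2.34 CPM in *Nr2f1* controls and 3.86 to 5.69 CPM in *Nr2f1* mutants, so that *Sox2* mutants overlapped with the controls of the other line. The control libraries of *Crtac1* did not match between the lines as those of *Ebf1* did, since all 3 *Nr2f1* controls lay below all 3 *Sox2* controls.

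**Figure D3:**
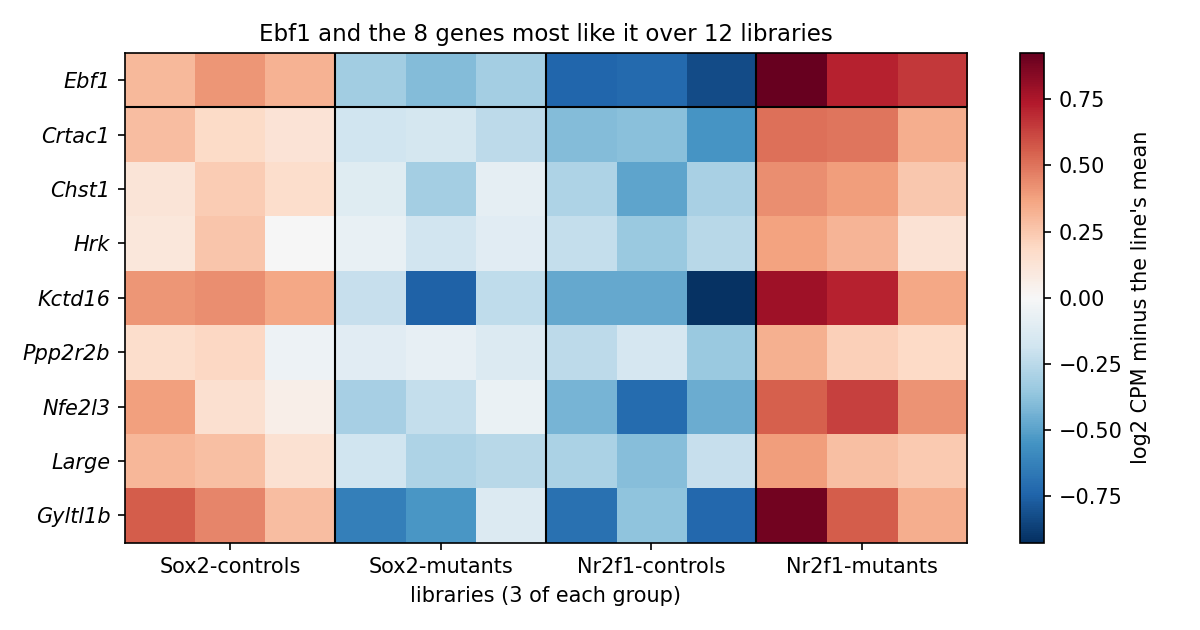
Log2 CPM of *Ebf1* (top) and of the 8 genes most like it, in the 12 libraries, as the difference from the mean of the 6 libraries of the line (colour). Libraries are in columns, 3 of each group; every gene is above its mean in *Nr2f1* mutants and below it in *Sox2* mutants.

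The genes most like the other members had other patterns. For *Ebf3* they were *Sema3f* (r = 0.974), *Khdrbs3* (0.968) and *Doc2b* (0.967), with log2 fold changes of 0.66, 0.83 and 1.44 in *Sox2* mutants and 0.32, 0.37 and 0.56 in *Nr2f1* mutants. For *Ebf2* they were *Ppp1r18* (0.926), *Vrk2* (0.920) and *Tlr3* (0.909), and for *Ebf4* *Dact3* (0.892), *Sctr* (0.880) and *Rbfa* (0.869). With Spearman's rho in place of Pearson's r, 6 of the 8 genes for *Ebf1*, 1 of the 3 for *Ebf3*, and 0 of the 3 for *Ebf2* and for *Ebf4* were again among the most alike. With the lines not centred, these numbers were 5 of the 8 for *Ebf1*, of which *Crtac1*, *Ppp2r2b* and *Gyltl1b* were not part, 1 of the 3 for *Ebf2* and for *Ebf3*, and 0 of the 3 for *Ebf4*.

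Partners of Ebf proteins and the E proteins, with the Id proteins that inhibit E proteins, were a list of 9 genes. In *Sox2* mutants 1 of 9 rose, *Tcf4* (log2 fold change 0.61 ± 0.09, FDR = 0.0022 with edgeR), and 1 fell, *Id2* (-0.40 ± 0.07, FDR = 0.0058). In *Nr2f1* mutants 1 of 9 fell, again *Id2* (-0.63 ± 0.08, FDR = 0.0016). The shares over all genes were 3.9% up and 4.19% down in *Sox2* mutants and 1.32% down in *Nr2f1* mutants. An unadjusted p below 0.05 was met by 8 of the 9 in *Sox2* and 6 in *Nr2f1* mutants, and DESeq2 called 3 up and 1 down in the first and 2 down in the second. The calls in *Sox2* mutants depended on single libraries. *Tcf4* was not called without CTRL_1 or CTRL_2 (highest FDR 0.0152), and 5 of the 9 rose without CTRL_3. *Id2* was called without CTRL_3, but not without CTRL_1, CTRL_2, MUT_1, MUT_3 or MUT_4 and not with upper quartile scaling (highest FDR 0.0339). In *Nr2f1* mutants *Id2* passed with each of the 6 left out, and 2 of the 9 fell without MUT_B. *Zfp423* had the highest CPM of the list. It was at 387 ± 4.8 CPM (SD, n = 3) in *Sox2* controls and 337 ± 24.2 CPM in *Sox2* mutants. In *Nr2f1* controls and mutants it was at 448 ± 15.4 and 384 ± 34.3 CPM. It did not pass with edgeR in either line (FDR = 0.0662 and 0.0797). *Zfp521* had log2 fold changes of 0.15 ± 0.09 and 0.11 ± 0.05 (FDR = 0.263 and 0.217). The median log2 fold change of the list was 0.27 in *Sox2* and 0.11 in *Nr2f1* mutants, beside 0.0005 and 0.0138 over all genes tested.

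Neurogenic bHLH factors, which act before or beside Ebf genes in several neuronal lineages, were 10 genes, of which 7 were tested. *Neurog2* (-1.93 ± 0.13, FDR = 3.08e-05) and *Nhlh2* (-1.14 ± 0.11, FDR = 0.000206) fell in *Sox2* mutants, where 0 rose with edgeR or DESeq2. Of the 7, 5 had an unadjusted p below 0.05 in either direction, and 5 had a positive log2 fold change. The highest were *Bhlhe22* (1.18, FDR = 0.0324), *Neurod2* (1.28, FDR = 0.0741) and *Neurod6* (1.4955, FDR = 0.069), which did not pass with edgeR. The mean summed level of the list was 105.6 CPM in *Sox2* mutants and 105.9 CPM in *Sox2* controls. In *Nr2f1* mutants 0 of 7 passed with edgeR, 2 had an unadjusted p below 0.05 and 2 passed with DESeq2. *Neurog2* was at 12.4 ± 0.4 CPM in *Sox2* controls and 3.25 ± 0.386 CPM in *Sox2* mutants, and at 13.9 ± 1.89 and 7.42 ± 1.68 CPM in *Nr2f1* controls and mutants. The median log2 fold change was 0.29 in *Sox2* and -0.11 in *Nr2f1* mutants. *Neurog2* and *Nhlh2* had log2 fold changes of -0.91 and -0.45 in *Nr2f1* mutants (FDR = 0.0124 and 0.0336). Both passed in *Sox2* mutants with each of the 6 libraries left out in turn, while without MUT_3 1 gene of the list rose in *Sox2* mutants, and without MUT_A, and also without MUT_B, 1 fell in *Nr2f1* mutants.

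The known targets of Ebf factors in other tissues were given by 3 lists. Of 9 B lineage genes, 1 was tested in each line, *Cd79b*, at 0.173 ± 0.0767 and 0.556 ± 0.139 CPM in *Sox2* controls and mutants and at 0.160 ± 0.0965 and 0.316 ± 0.141 CPM in *Nr2f1* controls and mutants, and it passed in neither (FDR = 0.0253 in *Sox2* and 0.314 in *Nr2f1* mutants). Summed over the 9 genes, levels were 0.304 to 1.24 CPM in the 12 libraries, and 2 to 5 of the 9 had no count in a given library, so that these genes were at or near 0 in this tissue. With DESeq2 0 of the 9 passed in either line, and *Cd79b* had an unadjusted p below 0.05 in *Sox2* but not in *Nr2f1* mutants, with log2 fold changes of 1.67 and 0.97, which does not show that the lines differ. Its counts were 4 to 10 per library in *Sox2* controls and 17 to 30 in *Sox2* mutants, and 3 to 12 and 10 to 22 in *Nr2f1* controls and mutants, so that it was kept for testing by the group in which it was higher.

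Of 4 olfactory neuron genes with known Olf-1 sites, *Gnal*, which encodes a G protein subunit also used in the striatum, made up most of the summed level. It fell in *Sox2* mutants, from 476 ± 27.0 to 372 ± 6.59 CPM (log2 fold change -0.36 ± 0.07, FDR = 0.0072, with 3 of 3 mutants below all controls), and was at 505 ± 4.25 CPM in *Nr2f1* controls and 420 ± 34.7 CPM in *Nr2f1* mutants, where it did not pass with edgeR (-0.27 ± 0.06, FDR = 0.0323), although again 3 of 3 mutants lay below all controls. Of the 4 genes, 0 passed in *Nr2f1* mutants with edgeR, 2 had an unadjusted p below 0.05 and DESeq2 called 1 down. In *Sox2* mutants 1 of the 3 tested had an unadjusted p below 0.05 and DESeq2 called 1 down. The call in *Sox2* mutants was lost with 5 of the 6 libraries left out (CTRL_1, CTRL_2, MUT_1, MUT_3 or MUT_4, highest FDR 0.0463) and kept without CTRL_3, and 1 gene of the list fell in *Nr2f1* mutants without MUT_B. *Omp*, the marker of mature olfactory neurons, was under 1 CPM in all libraries.

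Of 5 adipocyte genes, *Cebpa* (0.98 ± 0.17, FDR = 0.0045) and *Prdm16* (0.56 ± 0.11, FDR = 0.0089) rose and *Pparg* fell (FDR = 0.0087) in *Sox2* mutants. *Pparg*, the nuclear receptor of fat cell differentiation, was at 0.907 ± 0.133 CPM in *Sox2* controls and 0.180 ± 0.121 CPM in *Sox2* mutants, and at 0.568 ± 0.182 and 0.966 ± 0.0362 CPM in *Nr2f1* controls and mutants. In *Nr2f1* mutants its log2 fold change was 0.77 ± 0.30 (FDR = 0.157). The calls of *Pparg* and *Prdm16* were lost whichever of the 6 libraries of the *Sox2* line was left out, CTRL_1, CTRL_2, CTRL_3, MUT_1, MUT_3 or MUT_4 (highest FDR 0.0324 and 0.0474). *Pparg* had 35 to 43 counts per library in *Sox2* controls and 2 to 13 in *Sox2* mutants, so that it was kept for testing by the group in which it was higher, and it was not tested where 10 counts were asked in each library. *Cebpa* was not called without CTRL_1, CTRL_2, MUT_3 or MUT_4 (highest FDR 0.0264). *Fabp4*, a fatty acid carrier of fat cells, was at 0.657 ± 0.2497 CPM in *Nr2f1* controls and 0.163 ± 0.108 CPM in *Nr2f1* mutants (0.256 times that of controls, with 3 of 3 mutants below all controls), and missed the threshold there (FDR = 0.04996). Its counts were 17 to 37 per library in these controls and 3 to 13 in these mutants, so that it too was kept for testing by the higher group, while its log2 fold change was -0.07 ± 0.44 in *Sox2* mutants (FDR = 0.923). In *Nr2f1* mutants 0 of the 4 tested passed with edgeR or DESeq2, and 2 had an unadjusted p below 0.05. The list had a median log2 fold change of -0.07 in *Sox2* and 0.19 in *Nr2f1* mutants.

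Striatal projection neurons, in whose differentiation *Ebf1* is known to act for a part of the cells, were given by 12 genes, all tested. In *Sox2* mutants *Drd2* (1.34 ± 0.20, FDR = 0.0019) and *Bcl11b* (1.09 ± 0.21, FDR = 0.0065) rose and *Drd1* fell (-1.55 ± 0.17, FDR = 0.000418), and in *Nr2f1* mutants *Foxp1* fell (-0.47 ± 0.06, FDR = 0.0028). In *Nr2f1* mutants 0 rose with edgeR, 7 of the 12 had an unadjusted p below 0.05 in either direction, and DESeq2 called 1 up and 2 down. *Drd1*, the D1 dopamine receptor, was at 7.91 ± 1.501 and 2.71 ± 0.233 CPM in *Sox2* controls and mutants and at 7.66 ± 1.83 and 4.86 ± 0.509 CPM in *Nr2f1* controls and mutants. In *Sox2* mutants 8 of the 12 had an unadjusted p below 0.05, and DESeq2 called 4 up and 1 down. *Drd1* was called with each library left out, whereas *Drd2* was not without CTRL_2 or MUT_4 (highest FDR 0.0115) and *Bcl11b* was not without CTRL_1, CTRL_2, CTRL_3 or MUT_4 (highest FDR 0.0299). *Foxp1* was not called in *Nr2f1* mutants without CTRL_D, CTRL_E or MUT_A (highest FDR 0.0211), and without MUT_B 4 of the 12 rose. The median of the list was 0.66 in *Sox2* and 0.46 in *Nr2f1* mutants.

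Cajal-Retzius cells express *Ebf2* and *Ebf3*, and their 7 marker genes were all tested. In *Sox2* mutants 3 of 7 rose, where the share over all genes tested was 3.9%, namely *Calb2* (1.24 ± 0.10, FDR = 7.59e-05), *Ndnf* (0.68 ± 0.11, FDR = 0.0025) and *Reln* (0.54 ± 0.10, FDR = 0.0067), and the median was 0.66. All 7 had an unadjusted p below 0.05, and DESeq2 called 4 up. *Calb2* was called with each library left out, *Ndnf* was not without CTRL_1, CTRL_2 or MUT_4 (highest FDR 0.0205), and *Reln* was not without CTRL_1, CTRL_2, MUT_1 or MUT_4 (highest FDR 0.0359). *Ndnf* and *Reln* were not called in one fit over the 12 libraries. The summed level of the list was 274, 254 and 220 CPM in *Sox2* controls and 454, 398 and 426 CPM in *Sox2* mutants. *Calb2* had the highest CPM of the list in these libraries, with a mean of 81.8 CPM in controls and 194 CPM in mutants, and no gene was at 0. *Trp73* was at 0.466 and 1.18 CPM in turn and did not pass with edgeR (FDR = 0.063). *Lhx1*, *Lhx5* and *Cacna2d2* did not pass either (FDR = 0.0395, 0.0178 and 0.0562). *Ebf3* was higher in these same mutants. So was the summed level of the GABAergic genes described below, at 232 to 314 CPM against 140 to 194 CPM in controls. The part of either kind of cell in the rise of *Ebf3* was not tested. In *Nr2f1* mutants 0 of 7 passed with edgeR or DESeq2, 3 had an unadjusted p below 0.05, 1 rose without MUT_A and 1 without MUT_B, and the summed level was 310, 308 and 396 CPM against 280, 297 and 254 CPM in controls.

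The cells of vessels and meninges that are known to express *Ebf1* were given by 3 lists. Of the pericyte and smooth muscle genes, 0 of 14 tested passed in *Sox2* mutants with edgeR (9 had an unadjusted p below 0.05 and 1 passed with DESeq2) and 0 of 15 in *Nr2f1* mutants (7 and 2). Their summed level was 543, 583 and 782 CPM in *Sox2* controls, 739, 915 and 845 CPM in *Sox2* mutants, 543, 605 and 616 CPM in *Nr2f1* controls and 732, 605 and 782 CPM in *Nr2f1* mutants. *Notch3* had the highest CPM of the list, no gene was at 0, and the groups overlapped in both lines. The medians of the list were 0.39 in *Sox2* and 0.28 in *Nr2f1* mutants. Without CTRL_3, 8 of these genes rose in *Sox2* mutants, and without MUT_B 5 rose in *Nr2f1* mutants.

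Endothelial genes gave a like picture. Of the 14 tested, 0 passed in either line with edgeR, 9 had an unadjusted p below 0.05 in *Sox2* and 12 in *Nr2f1* mutants, and 0 and 4 passed with DESeq2. Their summed level was 473, 519 and 736 CPM in *Sox2* controls, 654, 851 and 819 CPM in *Sox2* mutants, 467, 569 and 487 CPM in *Nr2f1* controls and 709, 554 and 770 CPM in *Nr2f1* mutants, led by *Cldn5*, with no gene at 0. The medians were 0.36 and 0.39. Without CTRL_3, 8 rose in *Sox2* mutants, and without MUT_B 5 rose in *Nr2f1* mutants.

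Meningeal fibroblast genes varied widely between pools of 1 group. Of the 13 tested, 1 rose in *Sox2* mutants, *Crabp2* (1.35 ± 0.23, FDR = 0.0041), and 0 passed in *Nr2f1* mutants with edgeR or DESeq2, where 10 had an unadjusted p below 0.05. In *Sox2* mutants 8 had an unadjusted p below 0.05 and 1 passed with DESeq2. *Crabp2* was not called without CTRL_1, CTRL_2, MUT_1 or MUT_4 (highest FDR 0.0232). Their summed level was 1002, 982 and 1969 CPM in *Sox2* controls, 1515, 3408 and 1818 CPM in *Sox2* mutants, 756, 1099 and 1145 CPM in *Nr2f1* controls and 2063, 1094 and 2534 CPM in *Nr2f1* mutants. *Col3a1* had the highest mean CPM of the list in each group, with no account of transcript length, and no gene was at 0. CTRL_3 and MUT_3 of the *Sox2* line and MUT_A and MUT_C of the *Nr2f1* line stand apart by this sum. Without CTRL_3, 2 rose in *Sox2* mutants, and without MUT_B 8 rose in *Nr2f1* mutants. The medians were 0.71 and 0.94.

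In the *Nr2f1* line MUT_B was thus the library whose absence moved the counts of all 3 lists. In the *Sox2* line CTRL_3 did so for pericyte and smooth muscle and for endothelial genes, whereas the 1 meningeal gene became 2 without CTRL_3 and 0 without CTRL_1, CTRL_2, MUT_1 or MUT_4. Without MUT_3, which also stands apart by its meningeal sum, 0 pericyte and smooth muscle genes, 0 endothelial genes and 1 meningeal gene rose in *Sox2* mutants with edgeR, the same counts as with all libraries. The part of these cells in the level of *Ebf1* was not tested.

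**Figure D4:**
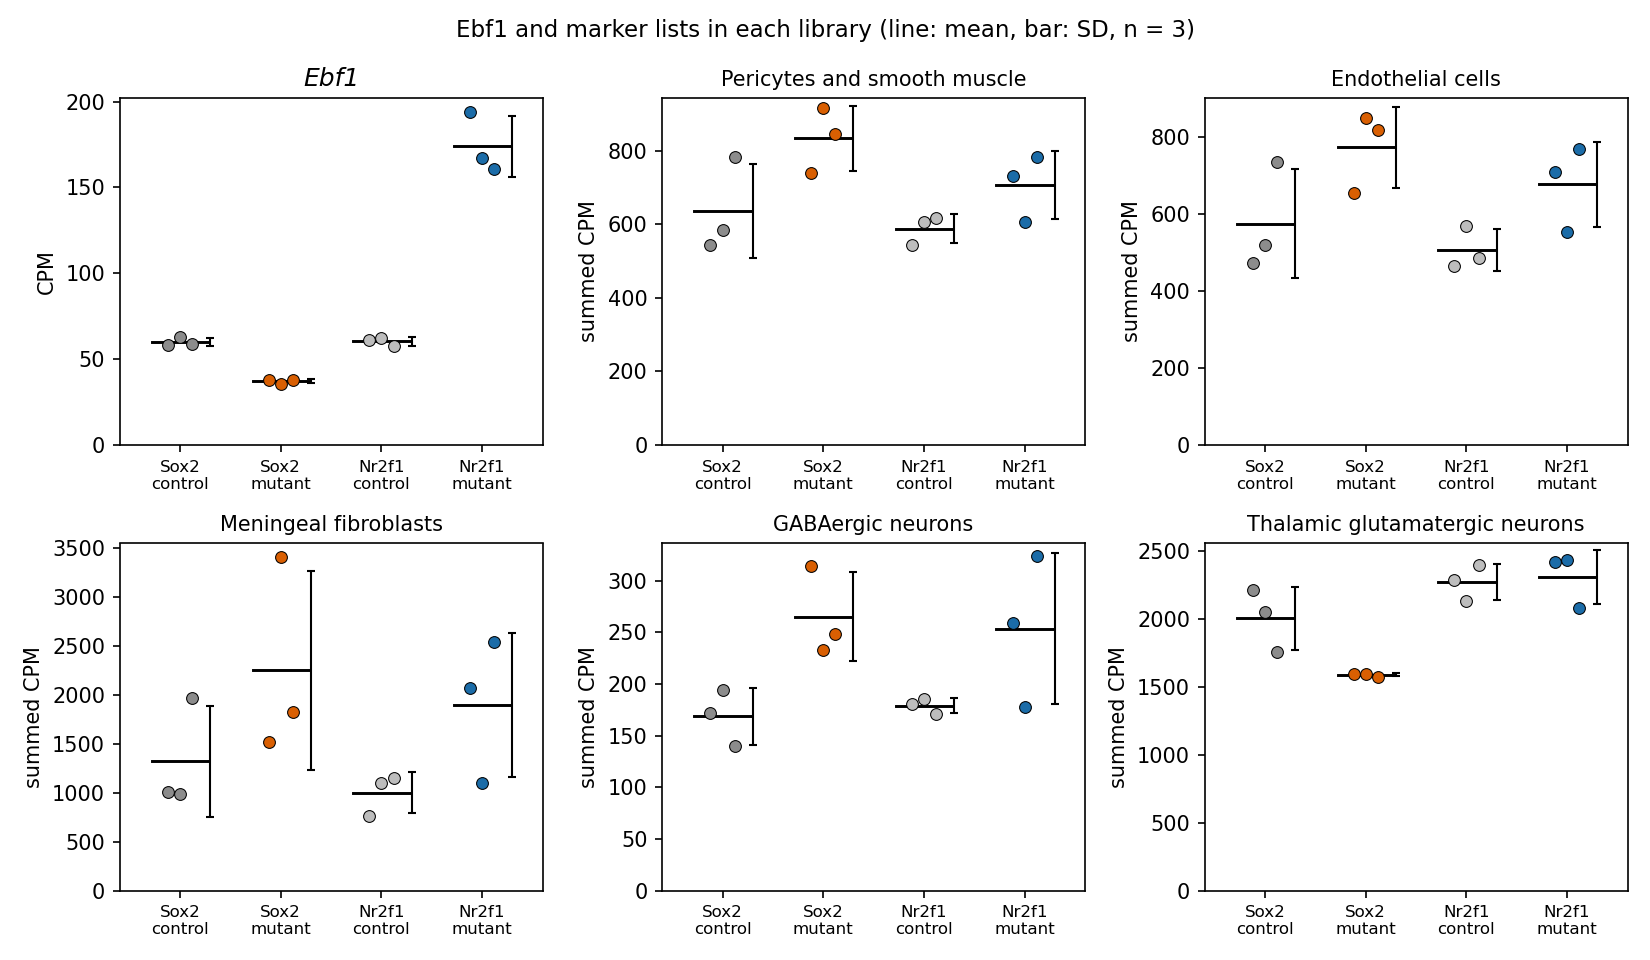
CPM of *Ebf1* and summed CPM of 5 marker lists in each of the 12 libraries (points), by group, with the mean (line) and SD (bar, n = 3); all axes start at 0. The pericyte and smooth muscle, endothelial and meningeal sums overlapped between mutants and controls in both lines.

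The tissue was checked by 9 genes of thalamic glutamatergic neurons, all of which were tested and had counts in every library. In *Sox2* mutants *Gbx2* rose (1.67 ± 0.16, FDR = 0.000206) and 5 fell, which were *Rora*, *Slc17a6* (-0.96 ± 0.10, FDR = 0.000336), *Lef1* (-0.91 ± 0.09, FDR = 0.000191), *Prox1* (-0.84 ± 0.11, FDR = 0.000964) and *Lhx9* (-0.43 ± 0.08, FDR = 0.0062). In *Nr2f1* mutants *Prox1* (1.10 ± 0.14, FDR = 0.0018) and *Lhx2* (0.46 ± 0.06, FDR = 0.0025) rose and *Lef1* fell (-0.70 ± 0.12, FDR = 0.0085). Over all genes tested, 3.9% rose and 4.19% fell in *Sox2* mutants and 1.22% and 1.32% in *Nr2f1* mutants. An unadjusted p below 0.05 was met by 6 of the 9 in *Sox2* and 7 in *Nr2f1* mutants. DESeq2 called 1 up and 5 down in *Sox2* mutants, and 5 up and 1 down in *Nr2f1* mutants. The medians were -0.43 and 0.26. The other 5 genes called in *Sox2* mutants passed with each library left out, but *Lhx9* did not without CTRL_1, CTRL_2, MUT_1, MUT_3 or MUT_4 nor in one fit over the 12 libraries (highest FDR 0.0578). In *Nr2f1* mutants *Prox1* was not called without CTRL_B or CTRL_D (highest FDR 0.0149), *Lhx2* was not without CTRL_D, CTRL_E or MUT_A nor in one fit over the 12 libraries (highest FDR 0.0934), and *Lef1* was called without MUT_B alone (highest FDR 0.0532 without CTRL_B, CTRL_D, CTRL_E, MUT_A or MUT_C). *Prox1*, a homeobox factor of dLGN neurons, was at 50.2 ± 7.58 and 28.2 ± 1.54 CPM in *Sox2* controls and mutants and at 57.9 ± 10.3 and 124 ± 19.8 CPM in *Nr2f1* controls and mutants. The summed level of the list was 2214, 2054 and 1757 CPM in *Sox2* controls and 1595, 1600 and 1577 CPM in *Sox2* mutants. In the *Nr2f1* line it was 2289, 2135 and 2403 CPM in controls and 2421, 2435 and 2085 CPM in mutants. *Tcf7l2* had the highest CPM of the list. The sum was thus lower in *Sox2* mutants and overlapped between the *Nr2f1* groups. In the *Sox2* line its mean was 2008 CPM in controls and 1591 CPM in mutants, of which *Rora* made up 331 and 85.2 CPM. With *Rora* taken out of the sum, the *Sox2* groups overlapped. The part of these neurons in the level of *Ebf1* was not tested.

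Genes of GABAergic neurons had a median of 0.66 in *Sox2* and 0.52 in *Nr2f1* mutants, with all 13 above 0 in both. Of these 13, 1 rose in *Sox2* mutants, *Otx2* (0.48 ± 0.10, FDR = 0.0086), where 12 had an unadjusted p below 0.05 and DESeq2 called 6 up. This count depended on the settings, with 4 up without the filter on low counts, 8 at FDR<0.05, 2 without MUT_3 and 0 without CTRL_1, MUT_1 or MUT_4. *Otx2* itself was not called without CTRL_1, CTRL_2, MUT_1 or MUT_4 (highest FDR 0.0428). In *Nr2f1* mutants 0 passed with edgeR, where 8 had an unadjusted p below 0.05 and 1 passed with DESeq2, and 7 rose without MUT_B. The summed level, led by *Gad1*, was 172, 194 and 140 CPM in *Sox2* controls and 314, 232 and 249 CPM in *Sox2* mutants, and 181, 185 and 171 CPM in *Nr2f1* controls and 259, 178 and 324 CPM in *Nr2f1* mutants. MUT_1 of the *Sox2* line and MUT_C of the *Nr2f1* line had the highest sum of their group, and *Ebf3* was highest in the same libraries. These libraries also had the highest sum of their group for the Cajal-Retzius list (454 and 396 CPM) and for the striatal list (148 and 127 CPM). The match is thus not particular to GABAergic genes, and the part of any of these cells in the level of *Ebf3* was not tested.

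Habenula markers were low, with summed levels of 15.3 to 26.3 CPM led by *Chrna3*. Of 6 tested, *Chrna3* fell in *Sox2* mutants (-0.57 ± 0.11, FDR = 0.0083), a call that was lost without CTRL_1, CTRL_2, MUT_1, MUT_3 or MUT_4, with upper quartile scaling and in one fit over the 12 libraries (highest FDR 0.0452), and of 5 tested in *Nr2f1* mutants 0 passed with edgeR or DESeq2 and 1 had an unadjusted p below 0.05. *Pou4f1*, the defining factor of habenular neurons, was at 0.785 ± 0.2803 and 1.38 ± 0.559 CPM in *Sox2* controls and mutants and did not pass (FDR = 0.166). The medians were 0.67 and 0.48.

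The members lie on 4 chromosomes (positions on GRCm38 from RefSeq). *Ebf1* is at chr11:44618100-45008096 on the plus strand, *Ebf2* at chr14:67233292-67430952 (plus), *Ebf3* at chr7:137193671-137322805 (minus) and *Ebf4* at chr2:130295126-130370482 (plus). The longest GENCODE transcripts linked to RefSeq have 16 exons in *Ebf1* and *Ebf3* and 17 in *Ebf2* and *Ebf4*. Antisense genes are annotated over *Ebf1*, *Ebf2* and *Ebf3*, and those that the count tables name were at or near 0 counts in all libraries. Whether the authors counted by strand is not given in the sources used here, and reads of antisense genes outside the tables cannot be told apart from those of the members.

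Within 500 kb of the members' gene bodies lie 52 other genes of the count tables, of which 36 were tested in each line. Of these, 0 passed in either line with edgeR, 11 had an unadjusted p below 0.05 in *Sox2* mutants and 5 in *Nr2f1* mutants, and 2 passed with DESeq2 in *Sox2* mutants (*Tgm6* and *Cpxm1*, both near *Ebf4*) and 0 in *Nr2f1* mutants. Over all genes tested, the shares in *Sox2* and *Nr2f1* mutants were 8.08% and 2.54% with edgeR, 35% and 24.6% at an unadjusted p below 0.05, and 15.8% and 7.13% with DESeq2. The neighbours of *Ebf1* that were tested are *Rnf145*, at -52.6 kb from its gene body (negative distances are upstream), with log2 fold changes of -0.20 ± 0.09 in *Sox2* and -0.15 ± 0.05 in *Nr2f1* mutants (FDR = 0.149 and 0.112), and *Ublcp1*, at -147 kb, with 0.00 ± 0.12 and 0.07 ± 0.10 (FDR = 0.987 and 0.723). Near *Ebf3*, the closest tested gene was *9430038I01Rik*, at -52.8 kb, with -0.10 ± 0.19 and -0.04 ± 0.19 (FDR = 0.747 and 0.914), and *Mgmt*, 65.5 kb downstream, had 0.99 ± 0.34 in *Sox2* mutants and did not pass (FDR = 0.0665).

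**Figure D5:**
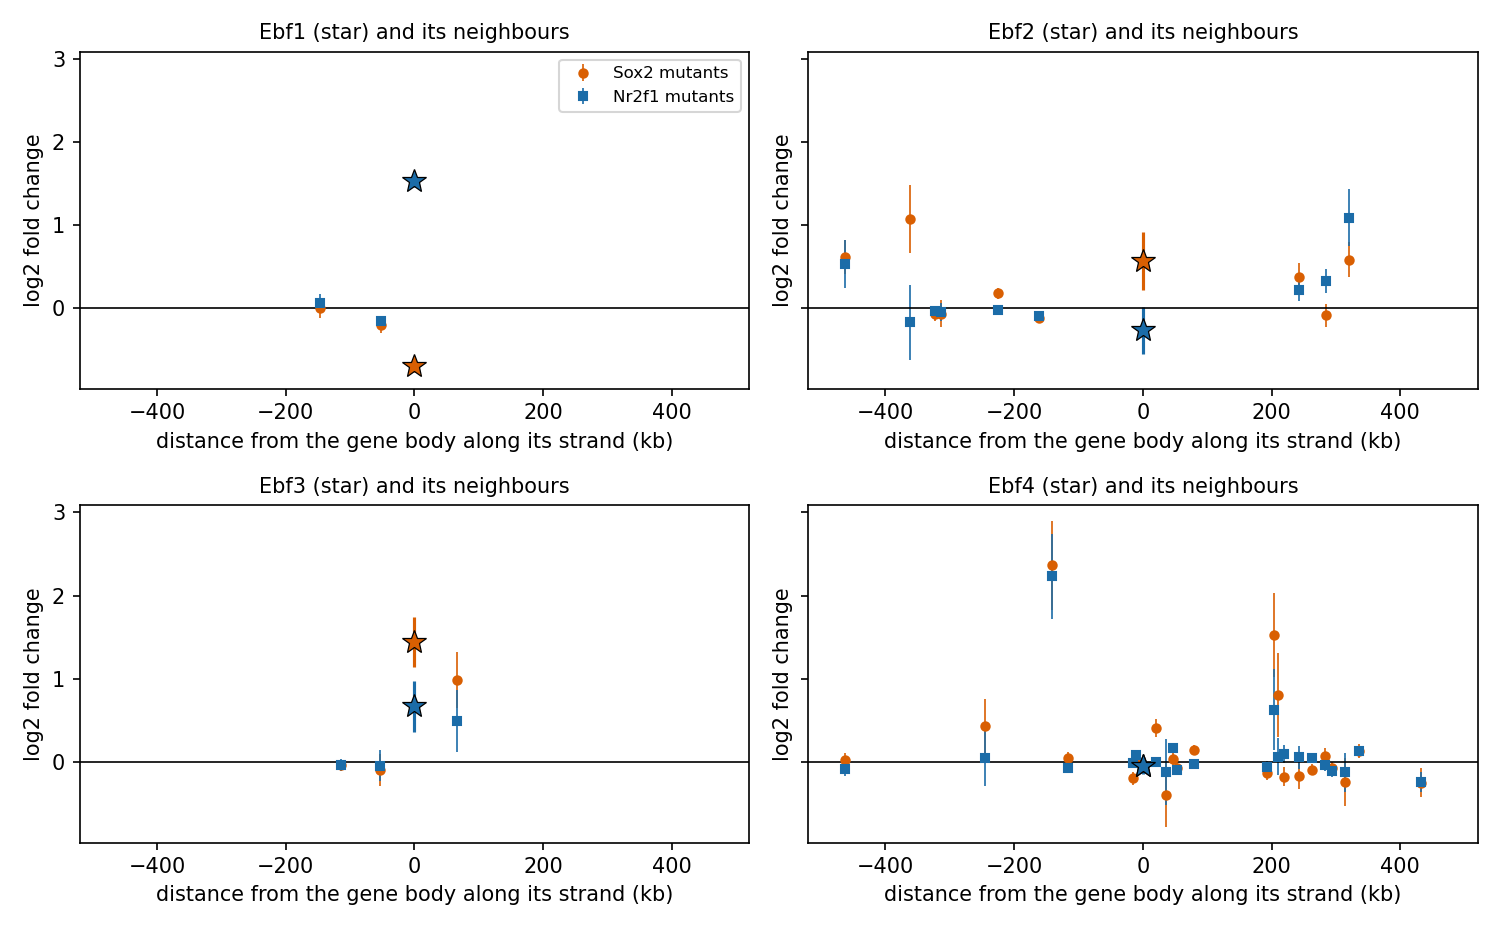
Log2 fold change with SE of the genes within 500 kb of each Ebf gene (circles for *Sox2* and squares for *Nr2f1* mutants) by distance from its gene body along its strand, with the Ebf gene as a star at 0. The 2 tested neighbours of *Ebf1* lie between -0.20 and 0.07, while *Ebf1* is at -0.70 and 1.53.

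Since *Sox2* and *Nr2f1* encode DNA-binding proteins, the stretch before the start of the members was searched for short sequences that such proteins are known to bind. RefSeq promoter entries (GRCm38.p6) were matched for 3 of the 4 members, with a pair of starts for *Ebf1* and 1 each for *Ebf3* and *Ebf4*, which gives 4 windows of the 250 bases before a start. The letters searched on both strands were the SOX cores ACAAAG and ACAATG and the nuclear receptor half-site AGGTCA, which do not overlap one another in these windows. None was found in the 4 windows, where 16.5%, 10.7% and 14% of the 32851 promoter windows of the same length hold them. This says only that these letters are not in these windows. The windows differed in composition, with 40% and 52.0% G and C before the starts of *Ebf1*, 80.0% before that of *Ebf3* and 75.2% before that of *Ebf4*, beside a median of 52.4% over all windows. A window each is shown for *Ebf1*, which was chosen for its change, and for *Ebf3*, which rose in *Sox2* mutants, all in lower case as no letters matched. They lie at chr11:44619978-44620227 (plus strand, the downstream start of *Ebf1*) and chr7:137314446-137314695 (minus strand), both within the annotated span of the gene and outside its GENCODE exons.
Ebf1: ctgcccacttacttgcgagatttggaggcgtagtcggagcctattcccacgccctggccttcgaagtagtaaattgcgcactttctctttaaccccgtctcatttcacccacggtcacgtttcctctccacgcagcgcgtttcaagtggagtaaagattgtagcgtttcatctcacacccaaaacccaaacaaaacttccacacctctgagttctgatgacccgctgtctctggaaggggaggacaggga
Ebf3: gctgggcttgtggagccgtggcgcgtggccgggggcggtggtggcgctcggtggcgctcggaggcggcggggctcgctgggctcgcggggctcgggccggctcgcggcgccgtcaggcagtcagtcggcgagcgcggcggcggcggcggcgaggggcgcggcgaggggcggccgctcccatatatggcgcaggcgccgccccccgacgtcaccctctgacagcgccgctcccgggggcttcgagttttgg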

How the data were processed

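RNA-seq was measured in 12 libraries. Reads had been aligned by the authors with STAR, against mouse RefSeq transcripts (build mm10, or GRCm38, per the labels), and summarised by RSEM. The values deposited by the authors are RSEM's expected counts, not normalized, for 24480 named genes in a table for each line. They were rounded before testing, since 7.77% were not whole. Column names gave the group of each library, but not the replicate numbers of the labels.

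Each line was fitted apart in edgeR 4.0.16 (R 4.3.3) with TMM factors, glmQLFit and glmQLFTest. Genes were kept by filterByExpr, with 10 as the lowest count and 15 as the lowest total. P-values were adjusted by Benjamini and Hochberg over all genes tested, and FDR<0.01 was the threshold. The difference between the lines was the interaction in one fit over the 12 libraries. SE is the log2 fold change divided by the square root of F, as a positive value, and 95% intervals use the t distribution with the degrees of freedom of the F-test. Likeness is Pearson's r of log2 CPM (prior count 2). With total counts of 39293465 to 50095344, *Ebf2* had 17 to 54 and *Ebf3* 33 to 173 counts per library.

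The genes named are the members, *Sox2*, *Nr2f1* and *Rora*, listed genes that passed or are abundant, the genes most like each member (8 for *Ebf1*, 3 for the others), and genes within 500 kb. The members and the lists were chosen with earlier results of these data known. Alternatives were to drop the filter, to ask for 10 counts in each library, to scale by the upper quartile, DESeq2 1.42.0, one fit over the 12 libraries, FDR<0.05, leaving out each library, the shortest transcript, no centring of the lines and Spearman's rho. Gene positions come from RefSeq, and transcript lengths from GENCODE transcripts linked to RefSeq.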

Additional observations from a re-analysis of the deposited data

Results flagged for a closer look

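*Ebf1* differed between the lines in the same contrast of mutants with controls. With the value of *Nr2f1* mutants subtracted from that of *Sox2* mutants, the log2 fold changes differed by -2.22 ± 0.10 (SE, 3 libraries in each of 4 groups), and each mutant library of one line lay on the other side of the controls from each mutant library of the other. As *Ebf1* was chosen for this pattern, the value is a description. For *Ebf2*, *Ebf3* and *Ebf4* the same difference was 0.84 ± 0.46, 0.78 ± 0.44 and 0.00 ± 0.13, and did not pass the test of edgeR (FDR = 0.408, 0.436 and 0.998).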

How the results depend on the processing

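No paired analysis was possible because the columns of the count tables do not carry the replicate numbers of the labels. Among the alternative values for *Ebf2*, *Ebf3* and *Ebf4*, 5 crossed the threshold, all of *Ebf3* in *Sox2* mutants, which then no longer passed. Those of *Ebf1* are left out of this count, as it was chosen for its pattern. The log2 fold change of *Ebf3* in *Sox2* mutants was 1.23 to 1.70 as each library was left out, and passed without 1 of the 6 (MUT_3, FDR = 0.0023) and under the 5 other settings. The cause was not tested. The sign of *Ebf4*, which passed nowhere, turned in *Nr2f1* mutants without CTRL_D (0.06), and its difference between the lines kept its sign in 12 of 16.

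DEG in *Sox2* mutants were 1261, and 2468 with DESeq2, 2075 in one fit over the 12 libraries, 3095 at FDR<0.05 and 494 to 2161 with each library left out. DEG in *Nr2f1* mutants were 396, and 1112 with DESeq2, 1154 at FDR<0.05 and 133 to 868 with each left out. The difference between the lines passed for 231 genes, and for 544 with DESeq2, 538 at FDR<0.05 and 133 to 308 with each left out. The cause of the differences between tools was not tested. By library, *Sox2* DEG were 554, 494 and 2161 without CTRL_1, CTRL_2 and CTRL_3 and 495 without MUT_4; *Nr2f1* DEG were 144, 169 and 179 without CTRL_B, CTRL_D and CTRL_E, and 133, 868 and 226 without MUT_A, MUT_B and MUT_C.

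For each list, genes that rose and genes that fell were counted apart in each line. Counts of at least 1 DEG stayed within 1.5 times in 135 of 216 cases and fell to 0 in 48. Counts of 0 became at least 1 in 35 of 408 cases, so that they depended on the settings too. Low counts limit *Ebf2* and *Ebf3*, and 3 pools per group limit all tests.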
